A study of Mus musculus with 6 samples.

Results

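The genes described here are 8 members of the ADAMTS family in mouse lung fibroblasts: Adamts1, Adamts4, Adamts5, Adamts8, Adamts9, Adamts10, Adamts12 and Adamts15. They were listed by name, as the family's aggrecanases and versicanases with a few relatives, with earlier results of these data known. They make up 8 of the 43430 gene rows of the deposited count table. RNA-seq was run on cells sorted by flow cytometry for PDGFRA, a receptor carried by most lung fibroblasts, from male C57BL/6J mice aged 9 to 11 weeks. In the hypercapnia group the mice had breathed 10% CO2 for 10 days, and in the room air group they had not been exposed. Each group had 9 mice, with the cells of 3 mice pooled per library, so that the spread between the 3 libraries of a group is a spread between pools. Libraries are called by the columns of the table: M4, M5 and M6 for hypercapnia, and M1, M2 and M3 for room air. The title of the study asks about Wnt production by these cells under hypercapnia, and the comparison described here is between the same groups.

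ADAMTS proteins are secreted zinc proteases that carry thrombospondin type 1 repeats. Several of them cut the large chondroitin sulphate proteoglycans aggrecan and versican, and by doing so open the hyaluronan-rich matrix around cells. Many of them are made as inactive precursors that furin-like convertases cut, and TIMP3 inhibits the aggrecanases among them. The scavenger receptor LRP1 takes ADAMTS4 and ADAMTS5 up from the cell surface. In lung, versican is a component of the provisional matrix laid down in development and after injury, and fibroblasts are among its sources.

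The active site of these proteases holds zinc through 3 histidines, next to the glutamate that takes part in catalysis. The 33 coding bases around it are shown because they place the members in the family and bear on whether reads of related genes could be confused. They were read from the GENCODE M21 transcripts (GRCm38), 5′ to 3′ along the mRNA, with the codons of the histidines and the glutamate in capitals.
Adamts1: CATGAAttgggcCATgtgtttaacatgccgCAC
Adamts4: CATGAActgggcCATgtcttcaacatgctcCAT
Adamts15: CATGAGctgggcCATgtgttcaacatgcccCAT
Adamts8: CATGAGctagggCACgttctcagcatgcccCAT
Adamts5: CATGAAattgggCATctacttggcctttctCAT
Adamts9: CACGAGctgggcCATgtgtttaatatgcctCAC
Adamts10: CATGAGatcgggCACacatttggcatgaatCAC
Adamts12: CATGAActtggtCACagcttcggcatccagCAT

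In all 8 genes an intron interrupts this stretch. It lies after base 10 of the stretch in Adamts1, Adamts4, Adamts5, Adamts8 and Adamts15, and after base 17 in Adamts9, Adamts10 and Adamts12. The stretch spans exons 3 and 4 of Adamts4 (chr1:171253210-171253915, + strand) and exons 3 and 4 of Adamts1 (chr16:85799191-85799545, - strand). Between any 2 members it differed at 3 to 16 of the 33 bases, with the fewest differences between Adamts4 and Adamts15. Over whole transcripts, the longest run of identical bases shared by 2 members was 46 bases (Adamts10 and Adamts12), and in 20 of the 28 pairs it was at most 20 bases. The length of the reads is not given in the sources used here, so whether reads of related members could be confused cannot be told from these runs.

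Total counts were 9009124, 9744259 and 10198336 in the hypercapnia libraries and 8999780, 9759770 and 9292923 in the room air libraries. These totals exceed the average number of aligned reads that the labels name, for a reason not known here. Levels are given as CPM, counts scaled to library size with TMM factors, which correct for differences in composition, and 3 counts correspond to 0.281 to 0.354 CPM. Pdgfra stood at 2971 ± 419 CPM in hypercapnia and 3562 ± 209 CPM in room air (SD, n = 3 each). The 12 leukocyte markers summed to 25.1 to 61.7 CPM in hypercapnia and 12.3 to 56.1 CPM in room air, most of it from Lyz2 (187 to 596 counts per library in hypercapnia and 95 to 483 in room air). Of the others, Cd3e, Nkg7 and S100a8 had no count in any library, and Ptprc had no count in hypercapnia and 2 in room air. The epithelial list summed to 434 to 559 CPM in hypercapnia and 447 to 723 CPM in room air. Of 18 endothelial markers all had a positive log2 fold change, and their sum was 2855 to 4610 CPM in hypercapnia and 801 to 2906 CPM in room air, lowest in M3. None of the 18 passed edgeR's test, against 11 at an unadjusted p under 0.05 and 2 by DESeq2. For comparison with this list and those below, 1.22% of all tested genes were called by edgeR. An unadjusted p under 0.05, in either direction, was found for 12%, and DESeq2 called 435 of 13005 genes. Of 11 alveolar fibroblast markers 6 fell by edgeR, 8 were lower by DESeq2 and 9 at an unadjusted p under 0.05, and their list summed to 15326 to 17643 CPM in hypercapnia and 20432 to 20984 CPM in room air. Of the 6, Gyg kept its call in all 16 alternative settings, and Col13a1 lost it without M2 and without M5. Fgfr4 lost it without M2, M5 or M6, as did Lpl, which also lost it without both M1 and M4. Limch1 and Npnt were not called without M1, M2, M3, M5 or M6. Npnt was also not called by edgeR with RLE size factors (adjusted p = 0.0521) or with a stricter filter (0.0562). Of 12 adventitial fibroblast markers 1 rose by edgeR, Il33, with 4 called higher by DESeq2 and 7 higher at an unadjusted p under 0.05, and their list summed to 3304 to 4527 CPM in hypercapnia and 3115 to 3424 CPM in room air. Il33 was not called without M1, M2, M3, M5 or M6 (adjusted p of 0.0588 to 0.195) or with the endothelial level in the model (0.106). The libraries stood furthest apart in 12 immediate early genes, such as Fos, Jun and Egr1, which cells switch on within minutes of a stimulus, including tissue dissociation. These summed to 27650, 4277 and 8649 CPM in M4, M5 and M6, and to 31154, 17706 and 11688 CPM in M1, M2 and M3. None of the 12 was called by edgeR or DESeq2 or had an unadjusted p under 0.05, and 10 had a negative log2 fold change. The parts these lists play in the results below were not tested, except where a value is given.

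In fibroblasts of hypercapnic mice Adamts4 fell to 0.22 times its room air level, and with all 6 libraries in edgeR's test it was the only member that changed. Adamts1, the member with the highest mean level per length, did not pass the test, and neither did Adamts5, the other main aggrecanase. All 8 members passed the filter on low counts. By edgeR's quasi-likelihood test, with p-values adjusted over 13005 genes and a threshold of 0.05, 1 of 8 members changed and it was lower. Of all tested genes 1.22% changed, with 0.7% of all tested genes lower and 0.523% higher. The log2 fold change was negative in 6 of 8 members and in 48.5% of all tested genes, with a median of -0.40 over the members and 0.01 over all tested genes. In 5 members (Adamts4, Adamts5, Adamts9, Adamts12 and Adamts15) every hypercapnia library was below every room air library, as it was in 8.74% of all tested genes. No member was wholly higher, against 9.28% of all tested genes. At an unadjusted p under 0.05, 4 members were lower (Adamts4, Adamts9, Adamts12 and Adamts15) and 5.51% of all tested genes were. Because the members were chosen with earlier results of these data known, these counts are a description and were not tested as a set. With the filter on low counts left out, edgeR called 3 members lower (Adamts1, Adamts4 and Adamts15), beside 756 changed genes in place of 159. For Adamts1 the log2 fold change was -0.49 in both fits, while its SE was 0.13 without the filter and 0.44 with it. DESeq2 did not call Adamts1 (adjusted p = 0.915).

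**Figure D1:**
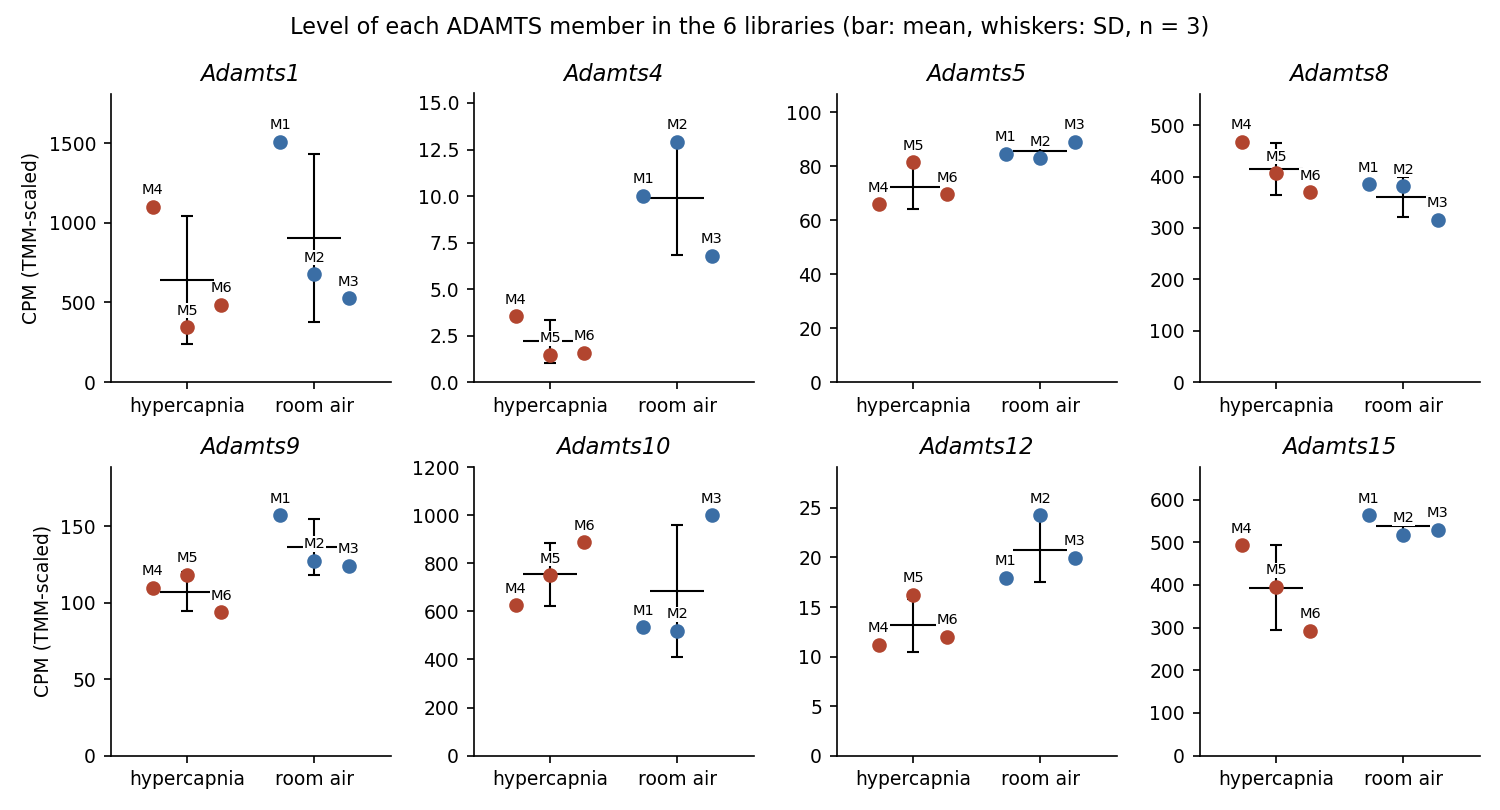
CPM (TMM-scaled) of each of the 8 ADAMTS genes in the 3 hypercapnia libraries (red, left) and the 3 room air libraries (blue, right). Each point is a library, the horizontal bar is the group mean and the whiskers are 1 SD. Adamts4 stands at 1.48 to 3.53 CPM in hypercapnia and 6.79 to 12.9 CPM in room air, while the points of Adamts1 and Adamts10 are spread widely within each group.

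Adamts4 encodes aggrecanase-1, named for its cut in the aggrecan core protein, and also cleaves versican. The gene (ENSMUSG00000006403) lies on chromosome 1 from 171250421 to 171260637 (GRCm38). Its counts were 31, 15 and 17 in M4, M5 and M6, and 85, 123 and 64 in M1, M2 and M3. As CPM this was 3.53, 1.48 and 1.59 in hypercapnia, against 10.0, 12.9 and 6.79 in room air. Every hypercapnia library was below the lowest room air library, which was M3. The means were 2.20 ± 1.15 CPM in hypercapnia and 9.91 ± 3.07 CPM in room air (SD, n = 3 each). The log2 fold change was -2.18 ± 0.43 (SE), or 0.22 times the room air level, with an edgeR adjusted p of 0.0428. In sorted pools, a smaller share of cells that express a gene and less RNA per cell cannot be told apart.

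The direction of Adamts4 was negative in all 16 alternative settings, with log2 fold changes of -2.71 to -1.93. The call was lost by edgeR without M1 (adjusted p = 0.0835), M2 (0.231), M5 (0.188) or M6 (0.157), and by limma-voom with all libraries (0.0532), with log2 fold changes of -2.17, -1.94, -1.96, -1.99 and -2.25 in the same order. With the mean level of the endothelial list in the model, Adamts4 had a log2 fold change of -2.71 (edgeR adjusted p = 0.0179). With that of the immediate early list it had -1.93 (0.0378).

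**Figure D2:**
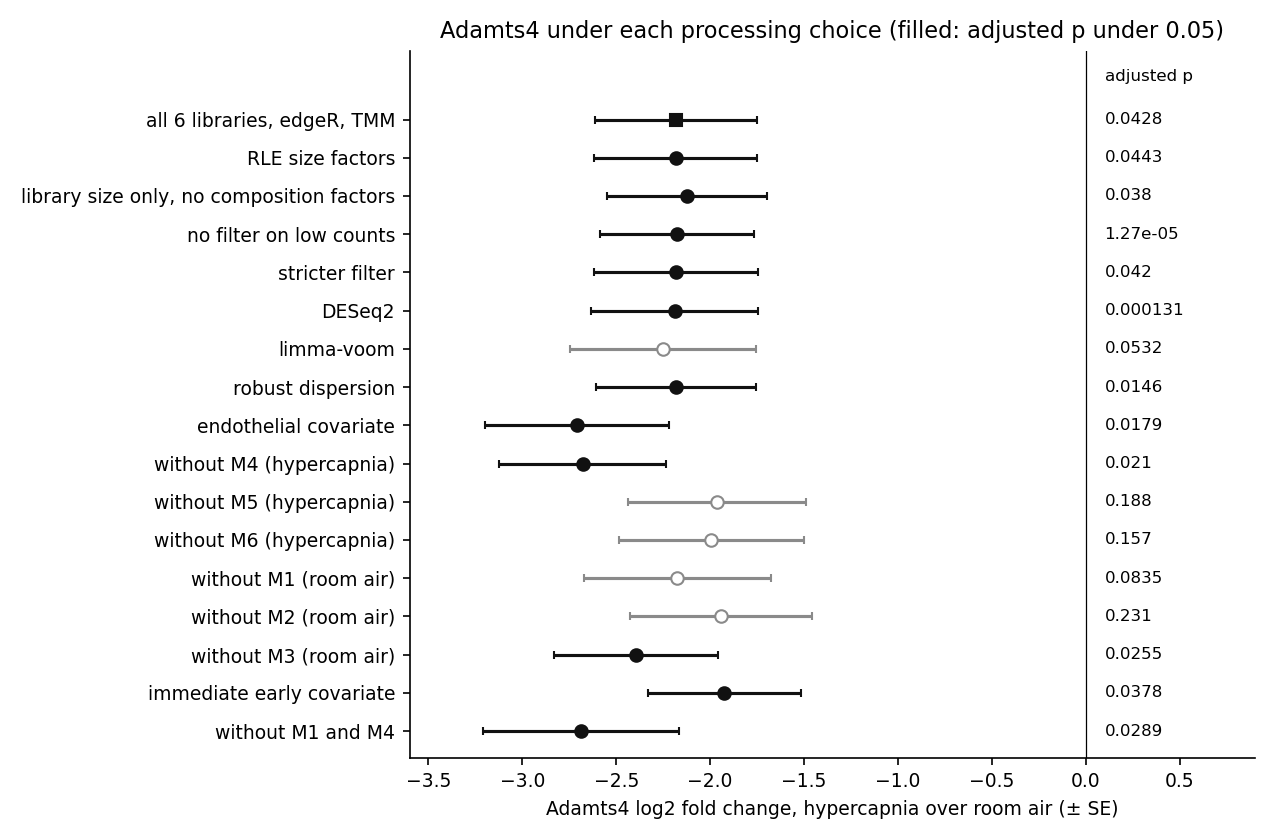
Log2 fold change of Adamts4, hypercapnia over room air, with its SE, for all 6 libraries (square) and under 16 alternative settings (circles), with the adjusted p on the right. Filled symbols have an adjusted p under 0.05. All values lie between -2.71 and -1.93, and 5 of the 16 settings leave the adjusted p above 0.05.

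Adamts5 encodes aggrecanase-2, the main aggrecanase of mouse cartilage (chr16:85856173-85901828). It lies 53059 bases from Adamts1 on chromosome 16, on the same strand and with no protein-coding gene between them. Adamts5 had 65.9, 81.4 and 69.6 CPM in M4, M5 and M6, against 84.7, 83.0 and 89.1 CPM in M1, M2 and M3. The groups did not overlap, but M5 was within 2% of the lowest room air library. Its log2 fold change was -0.24 ± 0.12 (SE, edgeR adjusted p = 0.452.)

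Adamts1, an inducible protease that cleaves both aggrecan and versican and also restrains vessel growth, had the highest mean level per length in both groups. Per kb it was the highest member in M4, M1 and M2, the libraries with the highest immediate early level, and Adamts10 was above it in M5, M6 and M3. The gene (ENSMUSG00000022893) lies on chromosome 16 from 85793827 to 85803113. It had 1099, 345 and 484 CPM in M4, M5 and M6, against 1509, 677 and 527 CPM in M1, M2 and M3. The groups overlapped, since M4 was higher than 2 of the 3 room air libraries. The log2 fold change was -0.49 ± 0.44 (SE, edgeR adjusted p = 0.747.)

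The order of the 6 libraries by Adamts1 was the same as their order by the mean level of the 12 immediate early genes, from M5 through M6, M3, M2 and M4 to M1. With that level in the model, the log2 fold change of Adamts1 was 0.014 ± 0.16 (SE). Without M1 it was 0.094, and without M4 it was -1.12 (edgeR adjusted p = 0.214). Without both M1 and M4 it was -0.55 ± 0.18 (adjusted p = 0.199). With the endothelial level in the model it was -1.25 (adjusted p = 0.128). Why these values moved was not tested.

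The 3 genes whose levels followed Adamts1 most closely over the 6 libraries were Cdkn1a, Thbs1 and Pde4b. Likeness was measured as the root mean square difference of mean-centred log2 CPM, among 10443 genes of at least 5 CPM. It was 0.13 for Cdkn1a, the cell cycle inhibitor p21. It was 0.17 for Thbs1, which encodes thrombospondin 1, a protein reported as a substrate of ADAMTS1, and 0.17 for Pde4b, a cyclic AMP phosphodiesterase. Thbs1 had 2807, 684 and 1274 CPM in M4, M5 and M6, and 3360, 1928 and 1224 CPM in M1, M2 and M3. Its log2 fold change was -0.45 (edgeR adjusted p = 0.781).

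The 250 bases upstream of the annotated start of Adamts1 are shown because the order of the libraries by this member was also their order by the immediate early genes. They come from the RefSeq-based table on GRCm38.p6 (chr16:85803114-85803363, - strand), 5′ to 3′ towards the start, with motif matches in capitals.
Adamts1 upstream: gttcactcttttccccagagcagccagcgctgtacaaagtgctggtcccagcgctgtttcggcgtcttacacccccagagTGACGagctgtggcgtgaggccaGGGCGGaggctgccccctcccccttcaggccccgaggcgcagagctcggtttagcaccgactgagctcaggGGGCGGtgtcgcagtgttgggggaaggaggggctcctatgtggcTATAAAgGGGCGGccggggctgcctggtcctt

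Each motif was searched on both strands, and no matches overlapped. TATAAA, the TATA box, had 1 match, whose first base is at position -32 from the start, and 12.4% of the 32851 upstream windows of this length in the table hold it. TGACG, a partial cyclic AMP response element, had 1 match (17.8% of windows), and GGGCGG, the GC box, had 3 (32.7%). TGACTCA, the AP-1 motif, and CACGTG, the E-box, had none, and 4.5% and 6% of windows hold them. No other motif was searched, and whether Adamts1 shares the control of the immediate early genes was not tested. Upstream windows were at hand for 3 members. Those of Adamts9 and Adamts12 had no TATAAA and 1 match each to TGACG.

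**Figure D3:**
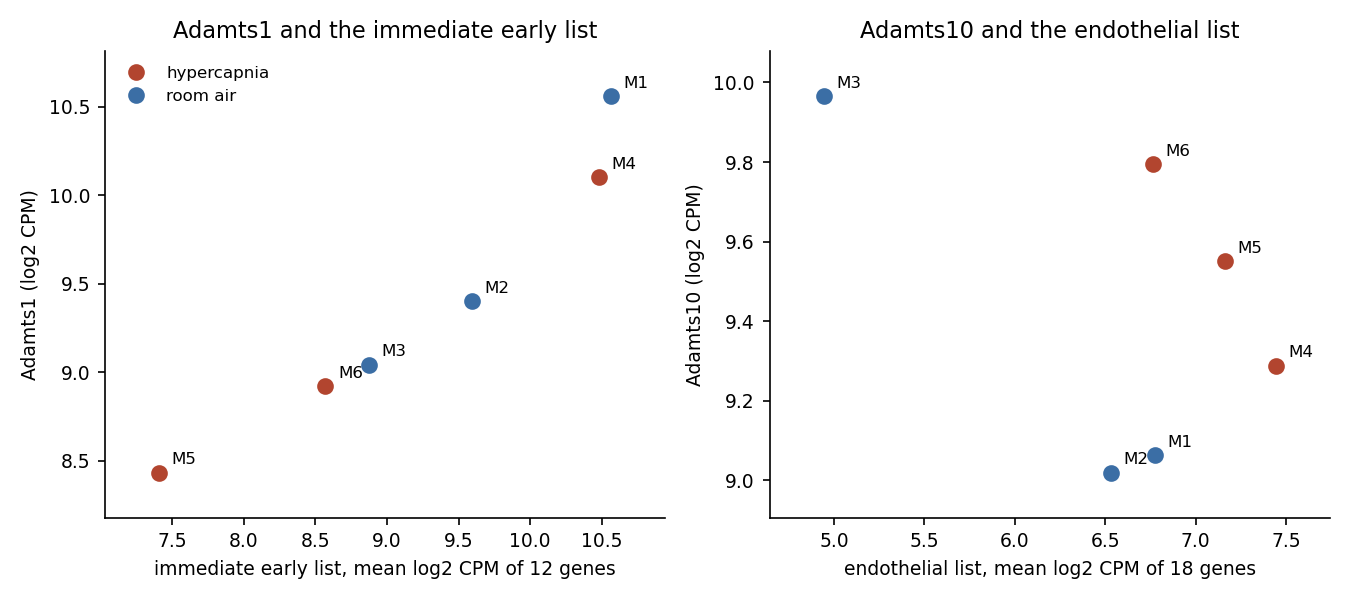
Left, log2 CPM of Adamts1 against the mean log2 CPM of 12 immediate early genes. Right, log2 CPM of Adamts10 against the mean log2 CPM of 18 endothelial markers. Each point is a library (red, hypercapnia; blue, room air). On the left the libraries have the same order on both axes, from M5 to M1. On the right M3, the room air library with the lowest endothelial level, has the highest Adamts10.

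Adamts8 encodes a protease first described as an inhibitor of vessel growth, and lung is a major site of its expression (chr9:30942562-30963838). It had 468, 406 and 369 CPM in M4, M5 and M6, against 385, 381 and 316 CPM in M1, M2 and M3. The groups overlapped at M6, which was below M1 and M2, and the log2 fold change was 0.20 ± 0.13 (SE, edgeR adjusted p = 0.603.) Of the exonic bases of Adamts8, 10.6% overlap the antisense model Gm29724, which is not used here.

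Adamts15 encodes a versican-cleaving protease and is the neighbour of Adamts8 (chr9:30899155-30922452). The 2 genes point away from each other with 20109 bases and no protein-coding gene between them. Adamts15 had 493, 396 and 293 CPM in M4, M5 and M6, against 564, 518 and 530 CPM in M1, M2 and M3. The room air libraries were close together, and all the hypercapnia libraries were below them. The log2 fold change was -0.45 ± 0.17 (SE, edgeR adjusted p = 0.287.) Without M4 it was -0.64 (adjusted p = 0.0759), and without M6 it was -0.27 (0.497).

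The ratio of Adamts15 to Adamts8, as CPM per kb, was 0.469, 0.434 and 0.353 in M4, M5 and M6, against 0.651, 0.606 and 0.747 in M1, M2 and M3. It was lower in every hypercapnia library than in any room air library. For the other pair of neighbours the ratio of Adamts5 to Adamts1 was 0.0295, 0.116 and 0.0707 in M4, M5 and M6, against 0.0276, 0.0603 and 0.0831 in M1, M2 and M3, and the groups overlapped. These ratios were formed after the values were seen and were not tested.

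Adamts9 encodes a versicanase needed for mouse development and is also expressed in vessels (chr6:92772699-92943492). It had 109.9, 118 and 93.8 CPM in M4, M5 and M6, against 157, 128 and 124 CPM in M1, M2 and M3. The groups did not overlap, and the log2 fold change was -0.35 ± 0.13 (SE, edgeR adjusted p = 0.313.) Of its exonic bases 12.0% overlap gene models on the other strand. These models, A730049H05Rik and Gm15737, had at most 25 and 8 counts in any library.

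Adamts12, whose product cleaves the cartilage protein COMP, was among the least abundant members (chr15:11064790-11349231). It had 11.2, 16.2 and 12.0 CPM in M4, M5 and M6, against 17.9, 24.3 and 19.9 CPM in M1, M2 and M3. The groups did not overlap, and the log2 fold change was -0.66 ± 0.22 (SE, edgeR adjusted p = 0.215.)

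Adamts10 encodes a protein that binds fibrillin-1 and is mutated in human Weill-Marchesani syndrome (chr17:33524204-33553782). It had 625, 750 and 888 CPM in M4, M5 and M6, against 535, 519 and 1000.03 CPM in M1, M2 and M3. The groups overlapped because M3 was the highest of all libraries, nearly double the other 2 of room air. The log2 fold change was 0.14 ± 0.23 (SE, edgeR adjusted p = 0.889.) With the mean level of the endothelial list in the model, it was 0.77 ± 0.13 and Adamts10 was called (adjusted p = 0.0140). Without M3, the library with the lowest endothelial level, it was 0.52 ± 0.15 and was not called (adjusted p = 0.156). Its sign turned without M1 (-0.011), without M2 (-0.026) and with the immediate early level in the model (-0.0090).

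Between members, levels were compared as CPM per kb of annotated exon. In hypercapnia Adamts1 averaged 121 ± 75.6 CPM per kb, Adamts10 91.4 ± 15.9 and Adamts8 89.9 ± 10.8 (SD, n = 3). These 3 overlapped with their neighbours in the order. Adamts15 followed at 38.0 ± 9.65, apart from the genes above and below it. Adamts9 at 7.13 ± 0.83 and Adamts5 at 6.70 ± 0.75 overlapped, and Adamts12 at 1.2 ± 0.25 and Adamts4 at 0.458 ± 0.24 did not.

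In room air the 6 highest members had the same order, with 171 ± 99.8 CPM per kb for Adamts1, 82.9 ± 33.1 for Adamts10, 78.2 ± 8.43 for Adamts8 and 51.8 ± 2.28 for Adamts15. Adamts9 stood at 9.06 ± 1.21 and Adamts5 at 7.93 ± 0.29. At the low end Adamts4 at 2.06 ± 0.64 and Adamts12 at 1.90 ± 0.30 overlapped. Adamts4 was thus below Adamts12 in every hypercapnia library, and in room air the ranges of the 2 genes overlapped. As a share of the summed CPM per kb of all 8 members, Adamts4 made up 0.164%, 0.103% and 0.103% in M4, M5 and M6, and 0.409%, 0.781% and 0.392% in M1, M2 and M3.

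The 3 genes whose levels followed Adamts4 most closely over the 6 libraries, by the same measure and among the same genes, were Igfbp3, Creb3l1 and Spon2. Their root mean square differences from Adamts4 were 0.39, 0.39 and 0.44 in log2 CPM, larger than those of the genes nearest to Adamts1. Igfbp3, which encodes an IGF binding protein, averaged 327 CPM in hypercapnia and 1163 CPM in room air. Creb3l1, a membrane-bound transcription factor, averaged 26.3 CPM in hypercapnia and 82.8 CPM in room air. Spon2, a secreted matrix protein, averaged 35.1 CPM in hypercapnia and 199 CPM in room air. Their log2 fold changes were -1.83, -1.66 and -2.50. Since the genes were picked for a profile like that of Adamts4 over the same libraries, a lower level in hypercapnia followed from the choice and is no separate result.

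**Figure D4:**
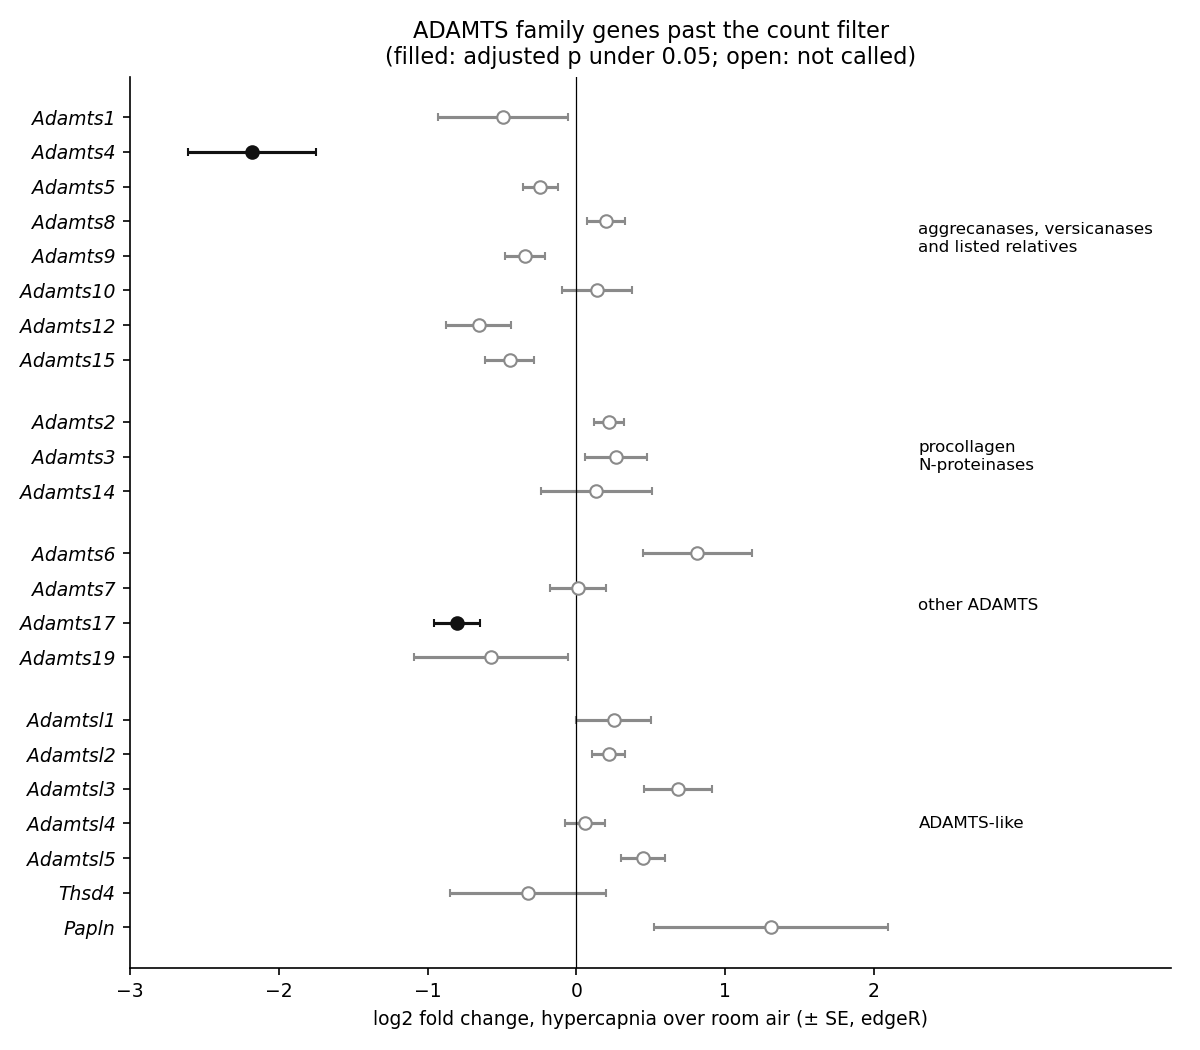
Log2 fold change, hypercapnia over room air, with its SE, for the 8 listed ADAMTS genes and the other family genes past the count filter. Filled symbols have an edgeR adjusted p under 0.05. Adamts4 (-2.18) and Adamts17 (-0.80) are filled and lie left of 0, and the other symbols are open.

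In the rest of the family, 1 gene changed. Adamts17, whose human counterpart is mutated in a Weill-Marchesani-like syndrome, fell to 64.8, 46.3 and 51.3 CPM in M4, M5 and M6, against 81.1, 106.1 and 95.7 CPM in M1, M2 and M3. The groups did not overlap, and the log2 fold change was -0.80 ± 0.15 (SE, edgeR adjusted p = 0.0389). The call was lost without M2 (adjusted p = 0.210), M3 (0.0569), M5 (0.186) or M6 (0.143). It was also lost when the level of the endothelial list entered the model (0.0545). Adamts7, the other abundant gene of this group, had 24.7 ± 3.93 CPM in hypercapnia and 24.6 ± 4.20 CPM in room air. Of the 8 ADAMTS proteases outside the chosen members and the procollagen N-proteinases, 4 passed the filter, Adamts13, Adamts16 and Adamts20 had at most 8 counts in any library, and Adamts18 had none. Of these 4, 1 was higher and 1 lower at an unadjusted p under 0.05, beside 12% of all tested genes in either direction. Groups without overlap were seen in 1 that was higher and 1 that was lower, beside 18% of all tested genes.

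The procollagen N-proteinases remove the amino-terminal propeptide of fibrillar procollagens. All 3 passed the filter and none was called by edgeR or DESeq2 or had an unadjusted p under 0.05. In 2 of them, Adamts2 and Adamts3, every hypercapnia library was above every room air library, as in 9.28% of all tested genes. Adamts2 had 864 ± 49.8 CPM in hypercapnia and 742 ± 39.1 CPM in room air (log2 fold change 0.22 ± 0.10). Adamts3 had 15.1 ± 0.92 CPM in hypercapnia and 12.5 ± 1.57 CPM in room air.

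ADAMTS-like proteins lack the protease domain, and several of them bind fibrillin microfibrils. Of 7 measured, 6 had a positive log2 fold change and 2 an unadjusted p under 0.05, and none was called by edgeR or DESeq2. Of all tested genes 48.5% had a negative log2 fold change and 12% an unadjusted p under 0.05. In 3 of the 7 every hypercapnia library was above every room air library, as in 9.28% of all tested genes. Adamtsl2, the most abundant, had 817 ± 53.2 CPM in hypercapnia and 703 ± 57.2 CPM in room air (0.22 ± 0.11, edgeR adjusted p = 0.474). Adamtsl5 had 163 ± 9.21 CPM in hypercapnia and 119.5 ± 23.6 CPM in room air (0.45 ± 0.15, adjusted p = 0.210).

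Among the substrates, aggrecan itself was close to absent. Acan had 0, 0 and 4 counts in M4, M5 and M6, and 2, 0 and 0 counts in M1, M2 and M3. Vcan, which encodes versican, had 129, 108 and 115 CPM in M4, M5 and M6, against 109, 88.7 and 76.2 CPM in M1, M2 and M3. The groups overlapped by less than 1 CPM, and the log2 fold change was 0.37 ± 0.14 (SE, edgeR adjusted p = 0.318.) Bcan, which encodes brevican, averaged 2.45 ± 1.69 CPM in hypercapnia and 3.92 ± 1.51 CPM in room air, and the other members of the aggrecan family and its link proteins did not pass the filter.

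Of 10 measured other proteins reported as substrates or partners of ADAMTS proteases, 1 fell and 9 were not called by edgeR. DESeq2 called 1 higher and 2 lower, and 1 was higher and 2 were lower at an unadjusted p under 0.05. Among all 13005 tested genes DESeq2 called 435, and 12% had an unadjusted p under 0.05 in either direction. Fbn1, the microfibril protein to which ADAMTS10 binds, stood at 1395, 1222 and 1117 CPM in M4, M5 and M6, against 1853, 1823 and 1752 CPM in M1, M2 and M3 (-0.54 ± 0.11, edgeR adjusted p = 0.0428). Without M1, M2, M3, M5 or M6 it was not called (adjusted p of 0.0613 to 0.215), and 20.1% of its exonic bases overlap the model Gm9913. The most abundant of this list were Bgn, the small proteoglycan biglycan, at 4555 ± 351 CPM in hypercapnia and 4194 ± 344 CPM in room air, and Fn1, fibronectin, at 4094 ± 425 CPM in hypercapnia and 4652 ± 446 CPM in room air.

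Of 9 measured genes for inhibition, activation and clearance, none was called by edgeR, 3 had an unadjusted p under 0.05 and 1 was lower by DESeq2. The same unadjusted threshold was passed by 12% of all tested genes, and DESeq2 called 435 of 13005. Timp3, the main tissue inhibitor of the aggrecanases, had 2063, 2482 and 2142 CPM in M4, M5 and M6, against 1788, 1787 and 1677 CPM in M1, M2 and M3. Every hypercapnia library was above every room air library, and the log2 fold change was 0.35 ± 0.10 (SE, edgeR adjusted p = 0.156.) Of its exonic bases 21.3% overlap Syn3 on the other strand. Timp2 averaged 1999 ± 98.7 CPM in hypercapnia and 2199 ± 60.3 CPM in room air. Lrp1, the clearance receptor, averaged 5118 ± 582 CPM in hypercapnia and 5117 ± 503 CPM in room air.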

How the data were processed

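The deposited values are raw counts per Ensembl gene, whole numbers with no normalization, 1 column per library. The submitters' processing notes name TopHat2 2.1.0, HTSeq, bcl2fastq 2.17.1.14, FastQC and, as build, mm10. Not given in the sources used here were the annotation release, the read length and whether counting used strand, so that reads from 2 genes overlapping on opposite strands cannot be told apart. Columns name a group but no sample, and were assigned to groups only. Symbols, positions and exon lengths came from GENCODE M21, which matched 42462 of 43430 IDs. Counts were tested with edgeR 4.0.16 (R 4.3.3): filterByExpr with a minimum count of 10, TMM factors, quasi-likelihood F-test, group as the only term, Benjamini-Hochberg adjustment over 13005 genes. The SE is the log2 fold change divided by the square root of F. Alternatives used DESeq2 1.42.0 and limma 3.58.1. The fit was tested on simulated counts. No 2 libraries agreed within sampling noise (chi-square per degree of freedom of at least 12.6). Members and gene lists were chosen with earlier results of these data known. Named genes were all members, called genes of the related lists, the 2 most abundant genes of each list by mean CPM, Vcan, Acan, Timp3, Lrp1 and Fbn1, and the 3 nearest genes of Adamts1 and Adamts4. A result on overlapping annotation is not reported here.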

Additional observations from a re-analysis of the deposited data

How the results depend on the processing

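The count of 159 changed genes became 756 without a filter on low counts, 435 by DESeq2, 255 with robust dispersion and 240 with the immediate early level as a covariate, and ran from 24 (without M2) to 148 with 1 library left out. It was 27 without M5 and 42 without M6. The count of changed members, 1, became 3 without the filter (Adamts1 and Adamts15 added), 2 with the endothelial covariate (Adamts10 added) and 0 by limma-voom, and was 0 or 1 with 1 library left out. The members with a negative log2 fold change numbered 6 or 7 in every setting. Adamts1 turned to 0.094 without M1 and to 0.014 with the immediate early covariate, and was -1.12 without M4. Adamts10 turned to -0.011 without M1, -0.026 without M2 and -0.0090 with the immediate early covariate. It was 0.52 without M3. Adamts8 turned to -0.0025 with the endothelial covariate. Why these values moved was not tested. The immediate early covariate and the fit without M1 and M4 were chosen after seeing the data. Adamts4, Adamts5, Adamts9, Adamts12 and Adamts15 kept a negative sign in all 16 settings. With composition factors left out, the median over all genes moved by 0.064. No paired analysis was possible because the columns carry no numbers shared between the groups. With 63 counts of Adamts4 over the hypercapnia libraries and 272 over those of room air, its level in hypercapnia rests on few reads.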

Other observations

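Beside Timp2 and Timp3, 4 genes of the lists of other substrates and of inhibition, activation and clearance had groups without overlap and did not pass edgeR's test. They were chosen after their values were seen, and 18% of all tested genes had groups without overlap. Furin, a convertase that cuts ADAMTS precursors, averaged 125 ± 14.4 CPM in hypercapnia and 169 ± 9.22 CPM in room air (log2 fold change -0.43 ± 0.12, SE, adjusted p = 0.133). Pcsk5, another convertase, averaged 147 ± 17.3 CPM in hypercapnia and 108 ± 7.25 CPM in room air (0.44 ± 0.12, edgeR adjusted p = 0.137). Sdc4, the heparan sulphate proteoglycan syndecan-4, averaged 166 ± 64.2 CPM in hypercapnia and 290 ± 40.1 CPM in room air (-0.81 ± 0.23, edgeR adjusted p = 0.143). Fmod, the small proteoglycan fibromodulin, averaged 117 ± 22.7 CPM in hypercapnia and 78.4 ± 12.9 CPM in room air (0.57 ± 0.17, edgeR adjusted p = 0.156).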
